A study of Rattus norvegicus with 7 samples.

Results

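The miRNAs of red blood cells and of myeloid cells, a class that includes the microglia, were followed in the postnatal rat retina. They were taken as the features annotated as miRNA whose gene symbol carries one of the names miR-144, miR-451 or miR-486 for the erythroid group, and miR-142, miR-223, miR-146a or miR-155 for the myeloid group. This rule used no measured value. It found 5 of the 571 miRNA features among the 5491 noncoding RNA features listed, with Mir451a and Mir144 in the erythroid group and Mir142, Mir223 and Mir146a in the myeloid group. No feature had the symbol Mir486 or Mir155, so these miRNAs were not analysed here.

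Small RNA was sequenced on the Ion Torrent PGM from whole retinas of untreated Wistar WU rats at 7 postnatal ages, of which P1 (postnatal day 1) was the first and P21 the last, with P3, P5, P7, P10 and P15 between them. The day of birth was counted as P0. At each age 3 retinas were pooled, and the paper's methods say that the pools were sequenced 2 times, but 1 value per feature and age was analysed here. No spread between animals could therefore be calculated, and no test between ages was possible. The sequence of ages is the only contrast of the design, and no rats of another strain or treatment were included.

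In red cell precursors, miR-144 and miR-451 are made from a shared transcript that is driven by the erythroid transcription factor GATA1. MiR-451 is unusual in that its precursor is cut by Argonaute-2 and not by Dicer, and mature red cells, which have no nucleus, still carry it in large amounts. MiR-142 is found in nearly all blood cell lineages and in microglia, miR-223 is typical of neutrophils and monocytes, and miR-146a is induced by NF-kB and restrains the inflammatory signal of Toll-like receptors through Traf6 and Irak1. Microglia settle in the retina during its development, and in the rat the vessels of the retina grow during the postnatal weeks.

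The mature sequences of the arms that are known to be abundant are shown because the deposited level is 1 value per gene and does not separate the arms. The capitals mark the seed, bases 2 to 8 counted from the 5′ end, which is the stretch that pairs with target mRNAs. The sequences were taken from RefSeq (GRCr8), where all 5 genes were matched.
rno-miR-451-5p: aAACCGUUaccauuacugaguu
rno-miR-144-3p: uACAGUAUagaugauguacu
rno-miR-142-5p: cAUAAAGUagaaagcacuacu
rno-miR-142-3p: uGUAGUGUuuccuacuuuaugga
rno-miR-223-3p: uGUCAGUUugucaaauacccc
rno-miR-146a-5p: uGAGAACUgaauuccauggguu
rno-miR-146b-5p: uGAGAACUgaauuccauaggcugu
The miRNAs of the erythroid and myeloid groups shared no seed with each other. Among the 724 mature sequences of the table, miR-146a-5p shared its seed GAGAACU with 1 other, miR-146b-5p, which is therefore printed beside it. Over the aligned bases these differ by G18A and U21C, with the base of miR-146a first and positions counted from the 5′ end, and miR-146b-5p is longer, with 24 against 22 bases. Mir146b is no member of either group, and its values are given further on.

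The hairpins of the neighbouring erythroid genes are shown because the place of the mature strand within them differs. The capitals mark miR-451-5p, which takes up bases 17 to 38 of the 72 bases of its hairpin and runs on through the loop, and miR-144-3p, which takes up bases 50 to 69 of 83 and lies in the second arm.
Mir451a hairpin: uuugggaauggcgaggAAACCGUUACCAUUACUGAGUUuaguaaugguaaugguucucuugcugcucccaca
Mir144 hairpin: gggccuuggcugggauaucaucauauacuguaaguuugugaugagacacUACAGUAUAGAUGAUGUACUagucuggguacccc

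In the rat genome build Rnor_6.0, Mir451a (ENSRNOG00000036258.1) spans chromosome 10 from 65291204 to 65291275 on the reverse strand. Mir144 (ENSRNOG00000035647.1) spans the same strand from 65291365 to 65291447, with 89 bases between the genes. No other listed feature lay within 10 kb of this pair or of the other members. On chromosome 10 too, Mir142 (ENSRNOG00000035633.2) spans 75050832 to 75050942 of the forward strand and Mir146a (ENSRNOG00000035466.1) spans 28962476 to 28962570 of the reverse strand. Mir223 (ENSRNOG00000035505.1) spans chromosome X from 65367812 to 65367921 on the forward strand. The position of these genes relative to exons and introns of longer transcripts was not analysed here.

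Levels are given in FPKM, fragments per kilobase of feature per 1000000 mapped fragments, as deposited. At P1 the value of each member was a whole multiple of what 1 alignment is worth at its length, from 47.3 FPKM for Mir142 to 145.7 FPKM for Mir144. From these units the alignments of the whole libraries were estimated as between 300643 at P1 and 1373760 at P21, of which miRNAs held 38.6% in the P3 library and 57.8% to 73.4% in the rest. At P3 to P15 each value was the sum of 2 step sizes (the FPKM that 1 alignment adds, larger for one part of the library's alignments than for the other), and at P21 of 4. Which step belongs to which sequencing run was not worked out. For the members the whole alignments of each step had a single solution except at P21, where Mir142 had 3 solutions from 47 to 59 alignments (estimate 52.2) and Mir451a was too high to be searched (estimate 286, with 94.3 and 376 as limits). The mean over the ages was 93.6 alignments for Mir451a, 32.0 for Mir142, 14.0 for Mir223, 12.3 for Mir144 and 9.86 for Mir146a, which put them at ranks 176, 290, 394, 411 and 442 of the 571 miRNA features. All 95% counting intervals cover counting error only, leave out the variation between animals, and treat PCR copies as independent molecules.

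Mir451a, the most abundant member, had its highest level at P1 and its lowest at P3. It was measured at 13378 FPKM on day 1 (115 alignments), 3660.2 on day 3 (27), 7945 on day 5 (70), 3910.4 on day 7 (56), 9890.4 on day 10 (69), 6432 on day 15 (32) and 12067 on day 21 (286, estimated). The level thus alternated between high libraries (P1, P5, P10, P21) and low ones (P3, P7, P15), and did not follow a steady course with age. Each of these changes from P1 to P10 was larger than the counting error, with log2 differences of -1.87 for P3 against P1 (95% counting interval from -2.56 to -1.23), 1.12 for P5 against P3 (from 0.42 to 1.85), -1.02 for P7 against P5 (from -1.57 to -0.48) and 1.34 for P10 against P7 (from 0.76 to 1.92). In alignments per 1000000 miRNA alignments, P10 against P7 was 0.40 (from -0.13 to 0.94), so that this last difference was within the counting error on that scale. In FPKM the end points P1 and P21 differed by 0.15 (from -0.20 to 0.48), an interval that includes 0. The place of P15 among the low libraries was less sure. Against P10 it differed by -0.62 (from -1.43 to 0.14), and P5 was above it by 0.30 (from -0.43 to 1.09). Both intervals include 0. P15 was below P21 by -0.91 (from -1.64 to -0.25), but this interval included 0 after scaling to miRNA totals (from -1.16 to 0.24) and by TMM (from -1.28 to 0.11).

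Mir144, the partner of Mir451a on the shared transcript, was measured at 3497 FPKM on day 1 (24 alignments), 459 on day 3 (3), 1026 on day 5 (7), 826 on day 7 (9), 4093 on day 10 (15), 1203 on day 15 (6) and 1184 on day 21 (22). P1 and P10 had the highest values. Against P15 neither differed beyond the counting error (P1 above P15 by 1.54, from -0.15 to 3.72, and P15 against P10 -1.77, from -4.01 to 0.030). Against P21 the log2 difference was 1.56 at P1 (from 0.52 to 2.56) and 1.79 at P10 (from 0.58 to 2.90). At P3, with 3 alignments, Mir144 was lower than at P1 by a log2 difference of -2.93 (from -5.44 to -1.05). The intervals of P3, P5, P7 and P15 against P21 all included 0.

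**Figure D1:**
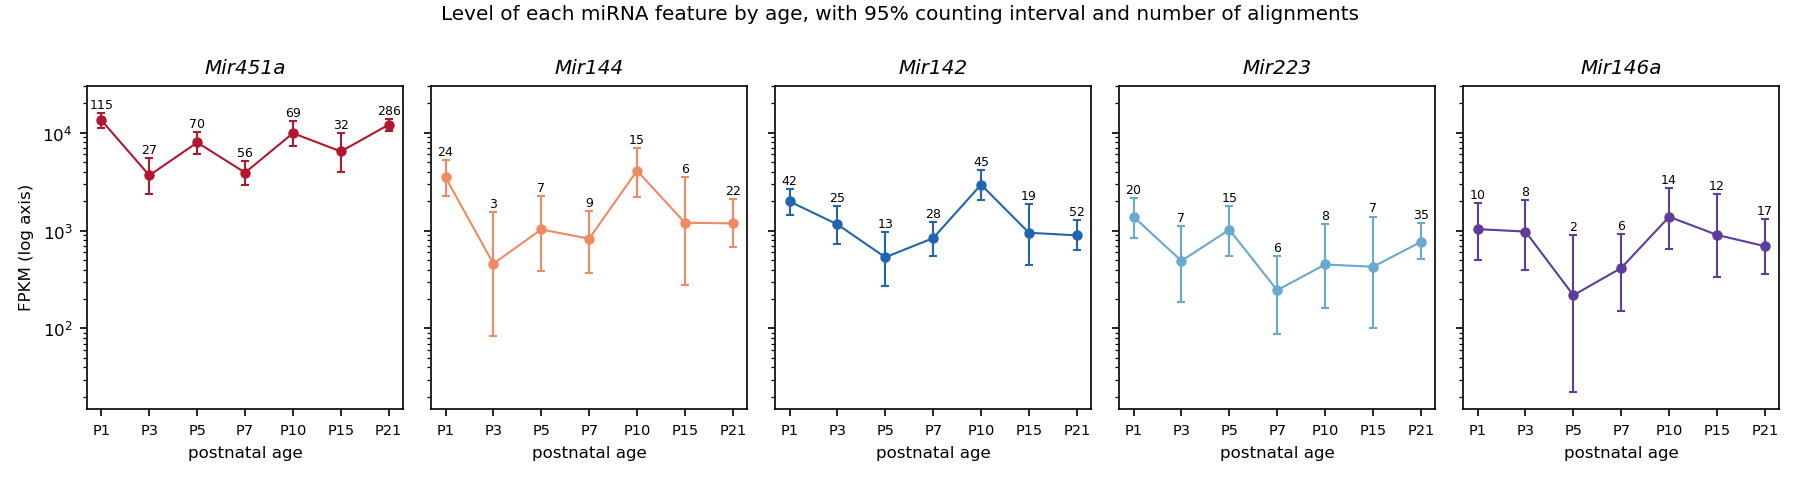
FPKM (log axis) of Mir451a, Mir144, Mir142, Mir223 and Mir146a in the 7 libraries from P1 to P21, with the 95% counting interval as bars and the number of alignments above each point. Mir451a lies between 3660.2 and 13378 FPKM, the other members between 218 and 4093, and the intervals are wide where only 2 to 9 alignments stand behind a value.

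At P1, 1 alignment was worth 145.7 FPKM in Mir144 and 116.3 in Mir451a, with feature lengths of 64 and 71 bases and not the gene spans given above. The ratio of Mir144 to Mir451a, both in FPKM, was highest at P10 and lowest at P21. It was 0.26 on day 1 (95% counting interval from 0.16 to 0.41), 0.13 on day 3 (from 0.022 to 0.46), 0.13 on day 5 (from 0.047 to 0.30), 0.21 on day 7 (from 0.091 to 0.43), 0.41 on day 10 (from 0.21 to 0.76), 0.19 on day 15 (from 0.041 to 0.61) and 0.098 on day 21 (from 0.055 to 0.18). The interval at P10 did not overlap that at P21, while the intervals at the other ages overlapped both. Mir451a was the higher of the pair in every library. The P10 ratio depended on the step, with 0.089 from the alignments of the smaller step (3 of Mir144 and 42 of Mir451a) and 0.56 from those of the larger (12 and 27). When all alignments of a gene weighed the same whatever their step, each at its worth at P1, the ratio was 0.27 at P10, 0.26 at P1 and 0.096 at P21.

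**Figure D2:**
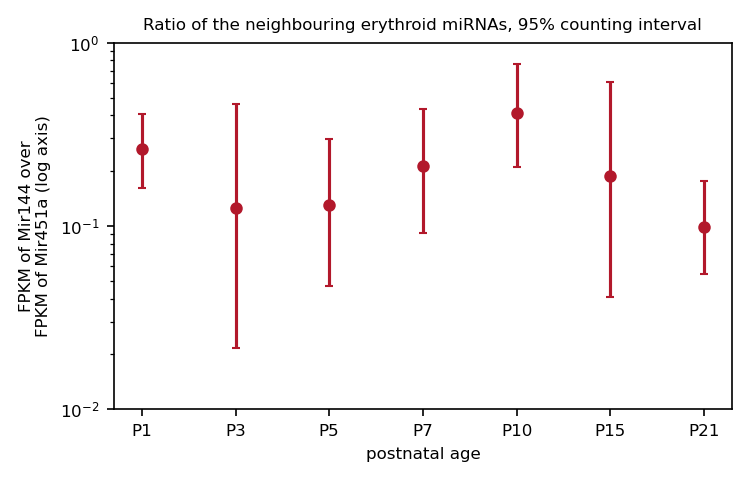
FPKM of Mir144 divided by FPKM of Mir451a (log axis) at each age, with the 95% counting interval as bars. The ratio was highest at P10 (0.41) and lowest at P21 (0.098), and these intervals do not overlap, but the P10 ratio was 0.089 from the smaller step alone and 0.56 from the larger.

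Of the myeloid group, Mir142, the broad marker of blood lineages and microglia, was measured at 1985 FPKM on day 1 (42 alignments), 1156 on day 3 (25), 533 on day 5 (13), 837 on day 7 (28), 2946 on day 10 (45), 949.8 on day 15 (19) and 893 on day 21 (52.2, estimated). As for Mir144, P10 and P1 were the highest libraries. The log2 difference against P21 was 1.15 at P1 (from 0.46 to 1.81) and 1.72 at P10 (from 0.99 to 2.42), and P10 was above P7 by 1.81 (from 1.06 to 2.59).

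Mir223, the marker of neutrophils and monocytes, took another course, with 1382 FPKM on day 1 (20 alignments), 490.3 on day 3 (7), 1021 on day 5 (15), 245 on day 7 (6), 450.4 on day 10 (8), 427 on day 15 (7) and 766 on day 21 (35). It was highest at P1 and P5, lowest at P7, and did not share the high P10 level of Mir142. P7 was below P1 by a log2 difference of -2.49 (from -4.09 to -1.12) and below P21 by -1.64 (from -3.23 to -0.33; from -2.58 to 0.32 after scaling to miRNA totals), and P10 was below P1 by -1.62 (from -3.23 to -0.079).

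Mir146a, the miRNA of NF-kB feedback, had the fewest alignments of the members, with 1035 FPKM on day 1 (10 alignments), 976 on day 3 (8), 218 on day 5 (2), 415 on day 7 (6), 1383 on day 10 (14), 903 on day 15 (12) and 692 on day 21 (17). The order of the ages, with P10, P1 and P3 at the top and P7 and P5 at the bottom, was the same as that of Mir142. With 2 to 17 alignments per library, neither P1 nor P10 differed from P21 beyond the counting error (log2 differences of 0.58, from -0.83 to 1.88, and 1.00, from -0.43 to 2.37). P10 was above P7 by 1.74 (from 0.16 to 3.49), but under each of the scalings tried this interval included 0.

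The erythroid sum (Mir451a and Mir144) was 16875.5 FPKM on day 1, 4119.5 on day 3, 8971 on day 5, 4737 on day 7, 13984 on day 10, 7635 on day 15 and 13251 on day 21. Against P21 the log2 difference was 0.35 on day 1 (from 0.027 to 0.66), -1.69 on day 3 (from -2.32 to -1.08), -0.56 on day 5 (from -0.98 to -0.16), -1.48 on day 7 (from -1.92 to -1.07), 0.078 on day 10 (from -0.36 to 0.50) and -0.80 on day 15 (from -1.47 to -0.16). P1, P10 and P21 thus formed the high end and P3 and P7 the low end. In the order of levels, P1 and P10, P10 and P21, P5 and P15, P15 and P7, and P7 and P3 did not differ beyond the counting error, and only the step from P21 down to P5 did. Scaled to the miRNA total of each library, the P5 sum was 13402 against 13251 at P21, so the sign of that step was turned. The P15 interval against P21 included 0 after scaling to miRNA totals (from -0.99 to 0.32), by median-of-ratios (from -1.23 to 0.078) and by TMM (from -1.12 to 0.19), and the P1 interval did so by median-of-ratios (from -0.051 to 0.58) and TMM (from -0.12 to 0.52). P3 and P7 were below P21 under all scalings tried.

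The myeloid sum (Mir142, Mir223 and Mir146a) was 4402 FPKM on day 1, 2623 on day 3, 1773 on day 5, 1498 on day 7, 4779 on day 10, 2279.7 on day 15 and 2351 on day 21. Against P21 the log2 difference was 0.90 on day 1 (from 0.36 to 1.42), 0.16 on day 3 (from -0.54 to 0.82), -0.41 on day 5 (from -1.16 to 0.32), -0.65 on day 7 (from -1.31 to -0.024), 1.02 on day 10 (from 0.42 to 1.60) and -0.045 on day 15 (from -0.89 to 0.83). P10 and P1 formed the high end and did not differ beyond the counting error. Of the neighbours in the order of levels only P1 and P3 did (0.75, from 0.076 to 1.42). The P7 interval against P21 included 0 under all scalings tried, with 2353 FPKM at P7 and 2351 at P21 when libraries were scaled to their miRNA totals, and the P3 interval against P1 did so under that scaling (log2 difference of -0.50, from -1.18 to 0.17). In these whole-tissue libraries, fewer cells of a type and less RNA per cell cannot be told apart.

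In FPKM as deposited, the erythroid and myeloid groups shared the high libraries P1 and P10 and the low library P7. Scaled to the miRNA total, the myeloid sum was no lower at P7 (2353 FPKM) than at P21 (2351). As deposited, the place of P3, P5 and P21 in the order of ages differed between the groups. From P7 to P10 the erythroid sum differed by 1.56 (from 1.03 to 2.09) and the myeloid sum by 1.67 (from 1.00 to 2.37). In alignments per 1000000 miRNA alignments the erythroid difference was 0.47 (from -0.012 to 0.96), an interval that includes 0. The erythroid sum was 3.83 times the myeloid sum on day 1, 1.57 times on day 3, 5.06 times on day 5, 3.16 times on day 7, 2.93 times on day 10, 3.35 times on day 15 and 5.64 times on day 21. The interval at P3 (from 0.89 to 2.74) did not overlap those at P1 (from 2.83 to 5.22), P5 (from 3.05 to 8.38) and P21 (from 4.14 to 7.52). No other intervals of the ratio lay apart. These ratios are of FPKM, in which 1 alignment at P1 was worth 116.3 in Mir451a and 145.7 in Mir144. It was worth 47.3 in Mir142, 69.1 in Mir223 and 103.5 in Mir146a. In alignments, the erythroid sum was below the myeloid sum on day 3 (30 against 40). The sums were equal on day 15 (38 each), and the erythroid sum was the higher at the other ages. Over the 7 ages Pearson's r of the summed levels, as log2(FPKM + 1), was 0.66. Among the members r was highest for Mir142 with Mir146a (0.86) and for Mir451a with Mir144 (0.78), followed across the groups by Mir144 with Mir142 (0.74) and Mir451a with Mir223 (0.73), and it was near 0 for Mir223 with Mir142 (0.031) and with Mir146a (-0.080). These values rest on 7 libraries, which the members share, and on few alignments.

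A 2-fold limit on log2(FPKM + 1) stood in for a call. At P1 against P21, 2 of 5 members passed it, both higher (Mir144 and Mir142), while 64.4% of all miRNA features did so in either direction and 32.9% were higher. At P10, again Mir144 and Mir142 were past it and higher, with a background of 50.6% in either direction and 24.9% higher. At P3 there were 2 members past it, both lower (Mir451a and Mir144; background 58.0%, with 29.2% lower), at P5 1 lower (Mir146a; 59.0% and 27.3%), at P7 2 lower (Mir451a and Mir223; 61.1% and 34.0%), and at P15 none (43.4%). The members passed the limit in either direction no more often than the background at any age. Their median log2 difference against P21 was 0.85 at P1 and 1.00 at P10, where the median of all miRNA features was 0.049 and 0.015, and it was -0.64 at P3, -0.60 at P5 and -0.74 at P7, where that of all miRNA features was -0.020, -0.024 and -0.39.

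Which age was highest depended on the scale. In FPKM, 2 members had their highest level at P1 (Mir451a and Mir223) and 3 at P10 (Mir144, Mir142 and Mir146a), against 22.1% and 11.4% of all miRNA features. Scaling the FPKM to the miRNA total of each library alone moved Mir144 to P1 (5394 against 4849 FPKM at P10) and the myeloid sum as well (6789 against 5662), while Mir142 stayed highest at P10 and Mir146a was then highest at P3. Counted as alignments per 1000000 miRNA alignments, a scale that is also relative to the miRNA total and on which each alignment weighs the same whatever its step, all 5 members were highest at P1, against 35.4% of all miRNA features. On this scale Mir451a was at 646 at P1 and 291 at P21, a ratio of 2.22 (95% counting interval from 1.77 to 2.77). That interval takes the estimated 286 alignments at P21 as known, and the limits of this estimate, 94.3 and 376, alone give ratios of 6.74 and 1.69. Mir144 was 2.88 times as high at P1 as at P10, the next highest age (from 1.45 to 5.91), and Mir142 1.68 times (from 1.08 to 2.62). For Mir223 the ratio of P1 to the next highest age, P5, was 1.97 (from 0.96 to 4.13), and for Mir146a that of P1 to P10 was 1.29 (from 0.51 to 3.11), and both intervals include 1.

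On the same scale the erythroid sum was 780.4 on day 1, 152 on day 3, 293 on day 5, 189 on day 7, 262 on day 10, 115 on day 15 and 313 on day 21, and the myeloid sum was 404, 202, 114, 116, 209, 115 and 106. All other ages were below P1, with ratios of P1 to the other ages from 2.49 to 6.81 for the erythroid and from 1.94 to 3.83 for the myeloid sum, and each of these intervals lay above 1. All intervals on this scale take the miRNA total of each library as known. The totals were estimated, with equal parts of the steps assumed where a feature had no single solution. At P21, 243 of the 571 miRNA features had one. The error of the totals from this assumption was not tested. The limits of the P21 estimate give ratios of P1 to P21 from 1.93 to 6.61 for the erythroid sum and from 3.59 to 4.02 for the myeloid sum. Against P21 all 5 members were at least 2-fold higher at P1, but 49.7% of all miRNA features were so too. The median log2 difference was 1.65 for the members and 0.98 for all miRNA features.

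**Figure D3:**
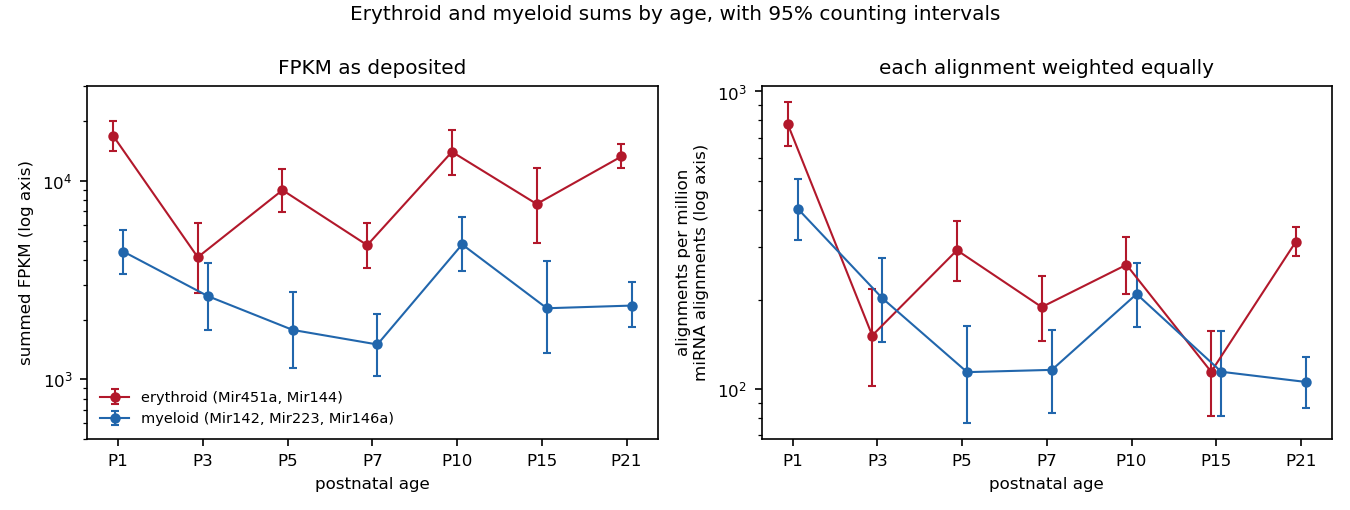
Sums of the erythroid (Mir451a, Mir144) and myeloid (Mir142, Mir223, Mir146a) miRNAs at each age, left in FPKM and right in alignments per 1000000 miRNA alignments (log axes), with 95% counting intervals as bars. In FPKM P1 and P10 do not differ beyond the counting error (16875.5 and 13984 for the erythroid, 4402 and 4779 for the myeloid sum), while on the right P1 stands above all other ages.

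The P10 values of several members came mostly from 1 of the steps. Of the 15 alignments of Mir144 at P10, 12 were of the larger step, at 319 FPKM each, and 3 of the smaller, at 90.2 FPKM each, so the larger step gave 93.4% of the FPKM. None of the 313 other miRNA features with at least 10 alignments at P10 had a higher share. For Mir142 the alignments were 22 and 23 and the share was 77.2%, above 96.8% of the other features, and for Mir451a they were 27 and 42 with 69.4%, above 93.6%. The other features had a median share of 42.6% (10th to 90th percentile from 24.3% to 63.8%). The larger step gave at least 2-fold more FPKM than the smaller one for 3 of the 4 members with at least 10 alignments at P10, against 8.52% of the 317 miRNA features with at least 10 alignments and a single solution. Mir146a, with 3 and 11 alignments, had a share of 49.1%, and Mir223, with 1 and 7, of 33.5%.

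For P3 to P15 the FPKM from 1 step was also taken alone and multiplied by 2, the number of steps, to stand for the whole library. With the smaller step so scaled, the P10 sums were 6589 FPKM (erythroid) and 3353 (myeloid), and both groups were highest at P1. With the larger step so scaled they were 21378 and 6205, and both were highest at P10. The parts of the same library thus differed more at P10 than P1, P10 and P21 differed from each other in the erythroid sum. Before this scaling the larger step gave 6866 FPKM of Mir451a and 3823 of Mir144 at P10, against 13378 and 3497 FPKM at P1. The calls of P10 as highest with the larger step rest on the scaling.

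At P15 the larger step gave 84.3% of the FPKM of Mir451a (15 and 17 alignments), above 98.4% of the other features, whose median share was 56.1%. A larger step at least 2-fold ahead of the smaller was found for this 1 of 3 members with at least 10 alignments at P15 and for 25.2% of the 258 miRNA features resolved in the same way. At P7 the shares of Mir451a (63.0%) and Mir142 (75.7%) lay within the 10th to 90th percentile of the other features (44.6% to 76.2%). At P21, the 22 alignments of Mir144 were spread over the 4 steps as 7, 7, 6 and 2, with shares from 23.7% to 27.1% each. The parts of the P21 library thus gave nearly equal FPKM for Mir144. Its share from the largest step, 27.1%, rests on 2 alignments and lay above 86.2% of the other features, whose median share was 12.7%.

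**Figure D4:**
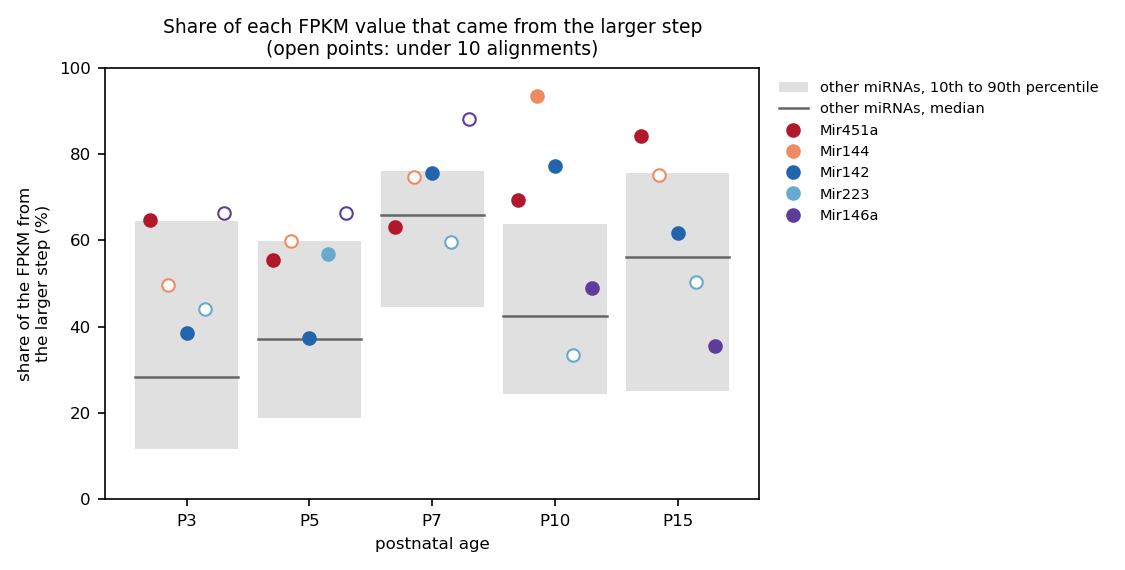
Share of each FPKM value that came from the larger of the 2 steps (0 to 100%) at P3 to P15, for each member as a point, open where fewer than 10 alignments stand behind it. Grey bars span the 10th to 90th percentile and the line the median of the other miRNA features with at least 10 alignments. At P10 Mir144 (93.4%), Mir142 (77.2%) and Mir451a (69.4%) lie above the grey bar.

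A list of other miRNAs known from blood cells matched 11 features. At P1 against P21, 2 of the 11 were at least 2-fold higher (Mir25 and Mir146b) and 6 at least 2-fold lower, against 32.9% and 31.5% of all miRNA features, and their median log2 difference was -1.22. Mir146b, which shares the seed of miR-146a, was measured at 2368 FPKM on day 1, 1137 on day 3, 760.4 on day 5, 809 on day 7, 1956 on day 10, 1246 on day 15 and 1172 on day 21. Of 344 miRNA features with a mean of at least 20 alignments it was the one whose course was most like the myeloid sum, with r = 0.96 over the 7 ages. Like the myeloid sum it was high at P1 and P10 and low at P5 and P7.

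Mir150, the miRNA of mature lymphocytes, took another course. It was measured at 514 FPKM on day 1 (6 alignments), 406 on day 3 (5), 1148 on day 5 (15), 426 on day 7 (8), 1623 on day 10 (23), 2609 on day 15 (24) and 2754 on day 21 (88.7, estimated). Its P1 level was lower than its P21 level by a log2 difference of -2.42, where Mir144 and Mir142 were higher at P1. Mir221 and Mir222, which restrain the receptor Kit in erythroid precursors, were also lowest early, with 520 and 1487 FPKM at P1 against 3481 and 7232 at P21 (Mir222 had a lower value still, 881, at P3). The other lower members of the list at P1 were Mir23a, Mir27a and Mir24-2, which lie in 1 cluster.

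After Mir146b, the courses most like the myeloid sum were those of Mir135a (r = 0.92), the predicted gene AABR07071431.1 (0.91), Mir30e (0.86) and Mir16 (0.84). For the erythroid sum they were those of Mir101-2 (0.91), AABR07047194.2 (0.85), AC135674.1 (0.77), Mir33 (0.76) and AC120262.2 (0.76). These likenesses were ranked over the same 7 libraries and share their scaling. Mir101-2 spans only 63578 FPKM at P7 to 112567 at P21, a narrower range than that of the erythroid sum.

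Markers of other cell types moved between the libraries as well. Mir126a, the miRNA of the endothelium, was measured at 42554 FPKM on day 1, 14666 on day 3, 14922 on day 5, 7031 on day 7, 24362 on day 10, 40166 on day 15 and 33548 on day 21. It was thus high on day 1, low from P3 to P7, and high again at P15 and P21. Mir143 and Mir145 did not share the high level on day 1. Mir143 was at 6414 FPKM on day 1, 10554.5 on day 3 and 8498 on day 5, and Mir145 at 28388, 33738 and 47315. The summed level of the endothelial and mural list (Mir126a, Mir143 and Mir145) ranged from 21511 FPKM at P7 to 132175 at P21. The muscle list (Mir1b, Mir133b and Mir206) reached 165251 FPKM at P3 and 100176 at P5 and lay between 4840.1 and 11665 at the other ages. The pigment epithelium list (Mir204 and Mir211) went from 87709 FPKM at P1 to 483914 at P21. No feature of these lists was at 0 at any age, and no feature matched the liver list (Mir122). The part of vessels, of blood left in the tissue and of other tissue in the levels of the erythroid and myeloid miRNAs was not tested, and they cannot be told apart from age with 1 pool per age. All 5 members were above 0 in every library, though on as few as 2 alignments (Mir146a at P5) and 3 (Mir144 at P3). Alignments of the matched erythroid and myeloid markers were therefore present in the tissue labelled as retina. The share of all miRNA features above 0 in every library is not given here, so this sets the members apart from no other miRNAs.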

How the data were processed

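Small RNA of pooled Wistar WU retinas was sequenced on the Ion Torrent PGM. The authors trimmed the reads, aligned these with noncoding RNAs of Ensembl (Rnor_6.0) and ran Cufflinks, Cuffmerge and Cuffdiff (2.2.1.3 in the submitters' processing notes), and they deposited FPKM values for 21 pairs of ages. Their fold changes, test statistics, p-values and q-values were not used. How reads shared between genes were counted and which normalization was applied between libraries is not given in the sources used here. The members and lists were chosen with earlier results of these data known. All members are named, and miRNAs of like course were the 5 with the highest r for each sum among those with a mean of at least 20 alignments. Mir-9 is not reported here.

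From the FPKM values, the worth of 1 alignment was found at P1 for 612 of 724 feature lengths and interpolated for the rest. Library steps were found from values under 200 alignments, of which between 98.6% and 100% came out as whole sums within the 6 digits given, at P21 among 828 low values. Where no single solution was found, equal parts of the steps were assumed. Intervals are gamma intervals for weighted counts, intervals of log2 differences and of ratios between genes were combined from these, and ratios of alignments between ages used exact binomial limits. The pseudocount was 1. On simulated data with 5491 features the number of steps was found in 7 of 7 libraries, and at least 99.7% of the resolved values were correct. Of 184 intervals for P1 against P21, 96.2% held the true difference. Their features were given equal FPKM from each P21 step and were drawn from those with fewer estimated P21 alignments than Mir451a. In the data, other miRNAs with at least 10 alignments had a median share of 12.7% from the largest P21 step. The intervals that rest on the estimated P21 value of Mir451a were thus not tested. Alternatives were TMM scaling (trimming 30% of ratios and 5% of levels), median-of-ratios scaling, scaling to the miRNA total, alignments per 1000000 miRNA alignments, pseudocounts of 0.1 and 10, other fold limits and filters, leaving out a member or an age, and another reference. Values from a single step (multiplied by the number of steps), and the Mir144 to Mir451a ratio by step, were added after the data were seen. Python 3.11.15, numpy 2.4.6, pandas 2.3.3, scipy 1.17.1 and matplotlib 3.10.9 were used.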

Additional observations from a re-analysis of the deposited data

How the results depend on the processing

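The log2 difference of P1 against P21 stayed above 0 for both sums under the alternatives tried and for all 5 members under the scalings tried. Intervals of single members often included 0. That of Mir451a did so as deposited, by median-of-ratios (0.071, from -0.27 to 0.40) and by TMM (0.0042, from -0.34 to 0.34). The Mir223 interval did so under the same settings, and the Mir146a interval under all but alignments per 1000000. For the erythroid sum the difference was 0.35 as deposited, 0.97 when scaled to the miRNA total and 1.31 in alignments per 1000000 miRNA alignments. It was 1.56 without Mir451a and 0.76 against the mean of all ages. For the myeloid sum it was 0.90 as deposited, 1.53 when scaled to the miRNA total and 1.92 in alignments per 1000000. The lowest erythroid values, 0.27 by median-of-ratios and 0.20 by TMM, had intervals that include 0. Of the 44 log2 differences whose interval excluded 0 as deposited, 33 did so when scaled to the miRNA total, 38 by median-of-ratios, 34 by TMM and 36 in alignments per 1000000. The highest erythroid age was day 1, but day 10 without Mir451a and with the larger step only, and between day 1 and day 10 when an age was left out (day 10 without P1). The highest myeloid age was day 10, but day 1 when scaled to the miRNA total, in alignments per 1000000, without Mir142 and with the smaller step only, and between day 1 and day 10 when an age was left out (day 1 without P10). Members past 2-fold at P1 numbered 2, with 4 when scaled to the miRNA total, 5 in alignments per 1000000 and 0 at a 4-fold limit. Scaling to the miRNA total moves all miRNAs against P21 by between 0.24 and 0.87 on the log2 scale, median-of-ratios by between -0.13 and 0.25 and TMM by between -0.14 and 0.35. The cause of these shifts was not tested.

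No paired analysis was possible because each age has a single library. Depth limits the members most at P3 to P15, where Mir144, Mir223 and Mir146a rest on 2 to 15 alignments, and most neighbours in the order of levels lie within the counting error. How reads were divided between Mir146a and Mir146b was not tested.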
